A study of Mus musculus with 12 samples.

Results

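The Hox genes of the clusters Hoxa, Hoxb, Hoxc and Hoxd were followed through 2 ages and 2 cell cycle phases of mouse intra-aortic haematopoietic clusters, rounded groups of cells inside the embryonic aorta from which the first blood stem cells emerge. Genes were taken by name, as Hox followed by a cluster letter and a paralogue number, which gave 39 of the 24138 genes in the deposited tables. There were 11 in Hoxa on chromosome 6, 10 in Hoxb on chromosome 11, 9 in Hoxc on chromosome 15 and 9 in Hoxd on chromosome 2. RNA was sequenced from 12 samples, 3 in each of 4 groups, all from C57BL/6 embryos and from the aorta-gonad-mesonephros region (AGM). Cells were sorted as SSEA-1-, CD31+ and CD117+. The groups were S/G2/M cells of Fucci Green animals (mAG+) at E11.5 and at E10.5, and G1 cells of Fucci Red animals (mKO2+) at E11.5 and at E10.5, where E gives the days of gestation. Fucci reporters are fluorescent proteins that are stable in only some phases of the cell cycle. Each phase therefore came from its own reporter strain, and phase and strain cannot be told apart. Separate litters are not stated for the samples within a group.

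Hox proteins are DNA-binding homeodomain transcription factors that give cells their position along the head-to-tail axis. Within a cluster the genes lie in the order of their paralogue numbers, and low-numbered genes are switched on earlier and further forward in the embryo than high-numbered ones. Hox proteins bind many of their targets together with Pbx and Meis proteins. Trithorax (MLL) complexes keep Hox genes active and Polycomb complexes keep them silent. In blood, genes such as Hoxa9 and Hoxb4 are known for their effect on stem and progenitor cells.

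The values are the authors' group values in FPKM (fragments counted per length of transcript and per total of mapped fragments), 1 per gene and group. They carry no spread between samples, and no read depth is recorded behind them. The words rose and fell are kept for genes with q, the p-value adjusted over all tested genes, below 0.05 in the authors' deposited table. The authors' own mark of significance is wider and reaches q = 0.0846 with age in both phases. It also takes in Hoxa2 and Hoxb5 in G1 cells, and Hoxb3 and Hoxc8 in S/G2/M cells, which do not pass here. The RNA of the sorted markers was present in every group. Pecam1, which encodes CD31, had 73.2 FPKM at E11.5 and 29.7 FPKM at E10.5 in S/G2/M cells, and 112.8 FPKM at E11.5 and 38.1 FPKM at E10.5 in G1 cells. Kit, which encodes CD117, had 30.0 FPKM at E11.5 and 12.6 FPKM at E10.5 in S/G2/M cells, and 17.1 FPKM at E11.5 and 14.4 FPKM at E10.5 in G1 cells. Fut4, an enzyme able to make the SSEA-1 epitope that the sorted cells lacked, lay between 1.86 and 4.17 FPKM. Runx1, a factor needed for blood formation from endothelium, and the endothelial cadherin gene Cdh5 were present in every group, the lowest values being 9.46 FPKM for Runx1 and 100.6 FPKM for Cdh5, both at E10.5.

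Hox RNA was lower at E11.5 than at E10.5 in both phases. The FPKM of the 39 genes summed to 120.6 at E11.5 and 364.8 at E10.5 in S/G2/M cells, 3.03-fold lower at E11.5. In G1 cells the sums were 146.3 FPKM at E11.5 and 379.2 FPKM at E10.5, 2.59-fold lower at E11.5. A level of 5 FPKM was reached by 8 members at E11.5 and 27 at E10.5 in S/G2/M cells, and by 9 at E11.5 and 23 at E10.5 in G1 cells. In a mixed population, fewer cells of a kind that carries Hox RNA and less Hox RNA per cell cannot be told apart.

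The order of the members also differed between the ages. At E11.5 the highest members in S/G2/M cells were Hoxb7 (11.9 FPKM), Hoxd8 (8.92 FPKM) and Hoxa3 (7.02 FPKM), and in G1 cells Hoxd8 (15.3 FPKM), Hoxb9 (13.7 FPKM) and Hoxb7 (12.2 FPKM). At E10.5 the highest in S/G2/M cells were Hoxc6 (33.1 FPKM), Hoxb9 (29.1 FPKM) and Hoxb5 (20.7 FPKM), and in G1 cells Hoxb5 (40.5 FPKM), Hoxb9 (29.7 FPKM) and Hoxc6 (26.6 FPKM). Without values per sample, no spread is known by which neighbours in these orders could be set apart. The median member had 2.65 FPKM at E11.5 and 7.49 FPKM at E10.5 in S/G2/M cells, and 3.39 FPKM at E11.5 and 7.92 FPKM at E10.5 in G1 cells.

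**Figure D1:**
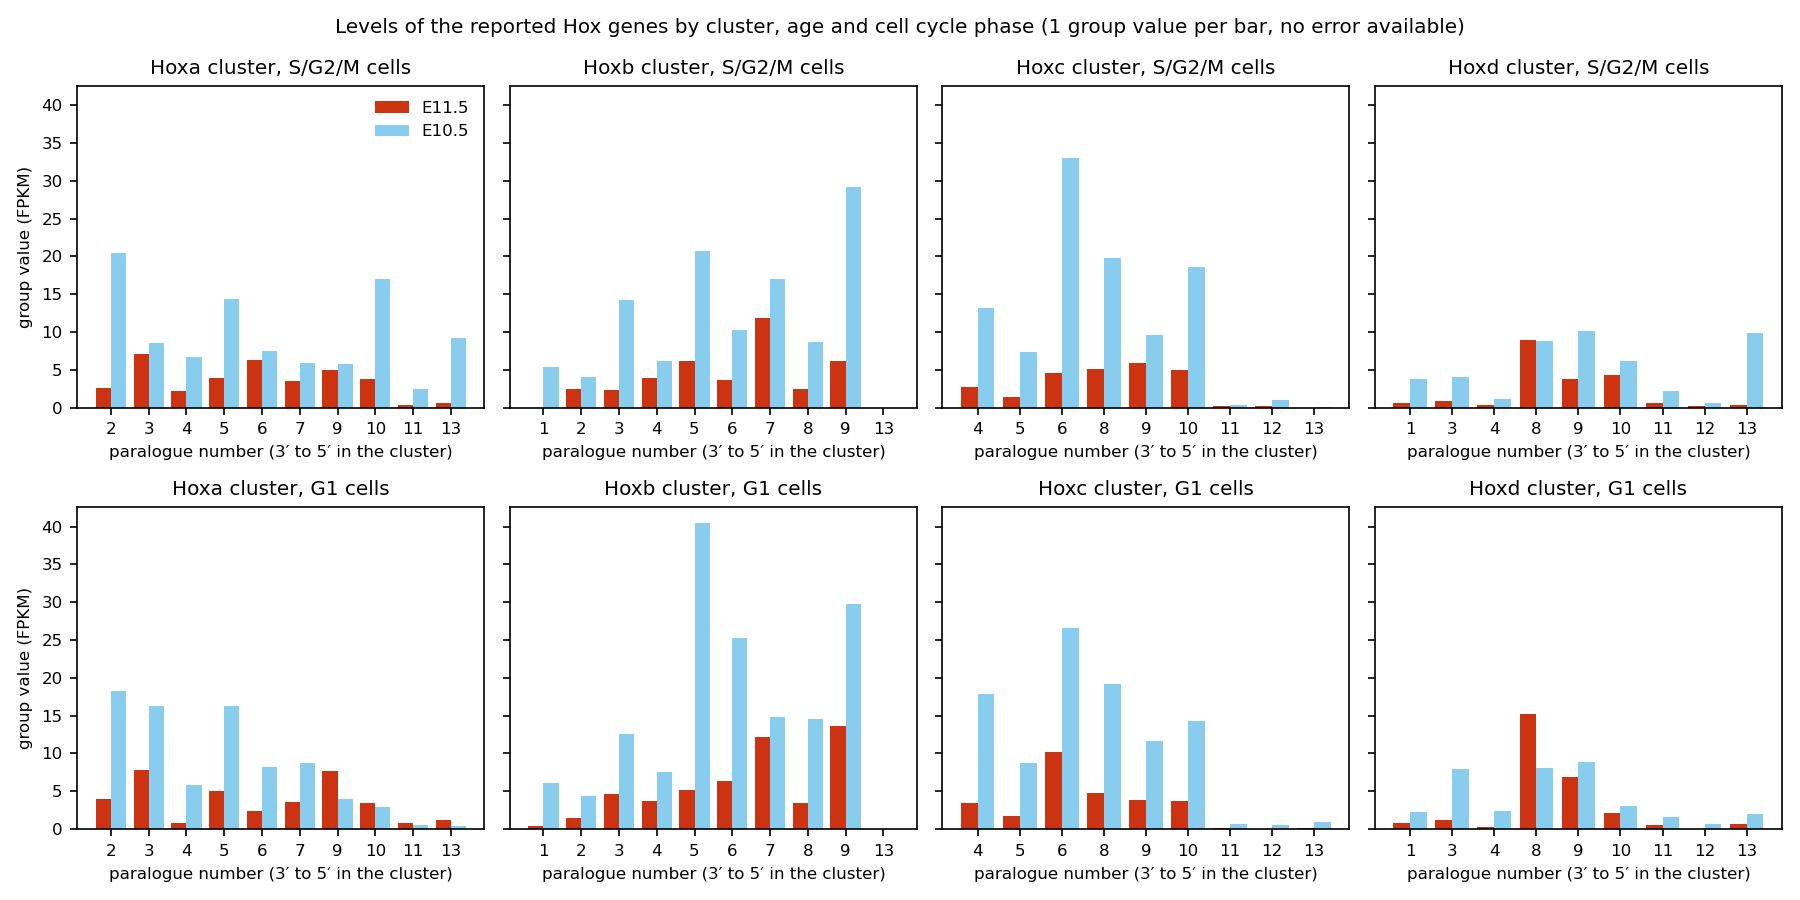
FPKM of the reported Hox genes (bars, the authors' group values, linear axis from 0) along each cluster, with S/G2/M cells above G1 cells and E11.5 left of E10.5 for each gene. The E10.5 bars are the taller ones for most genes, up to 40.5 FPKM for Hoxb5 in G1 cells, while Hoxd8 stands at 15.3 FPKM at E11.5 and 8.07 FPKM at E10.5 in G1 cells.

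The first question was how the age of the embryo changed Hox RNA within each phase. Among S/G2/M cells, 6 of the 34 tested members fell at E11.5 and none rose, by the authors' deposited table. They were Hoxa10, Hoxb1, Hoxb9, Hoxc4, Hoxc6 and Hoxc10, which is 17.6% of the tested members, against 1.93% fallen and 2.14% risen among all 12768 tested genes. Lower at E11.5, with or without a call, were 33 of the 34, against 47.9% of all tested genes. The median log2 fold change of the 36 members above 0 at both ages was -1.81, against 0.03 for all tested genes. A further 5 members were not tested by the authors, having too few reads.

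In G1 cells, 3 of the 32 tested members fell at E11.5 and none rose, by the authors' deposited table. They were Hoxc4, Hoxc5 and Hoxc8, 9.38% of the tested members, against 1.45% fallen and 3% risen among all 12953 tested genes. Lower at E11.5 were 29 of the 32, against 49.1% of all tested genes, and the median log2 fold change was -1.63 over 38 members, against 0.02 for all tested genes. Before adjustment, 13 members in S/G2/M cells and 10 in G1 cells had p below 0.05 and were lower at E11.5 by the authors' deposited tables. Among all tested genes this held for 6.09% in S/G2/M cells and 6.48% in G1 cells.

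Across both phases 8 members fell in at least 1 of them, and Hoxc4 fell in both. Of the 36 members above 0 in all 4 groups, 31 were lower at E11.5 in both phases, and 20 of them by 2-fold or more in each. Among all tested genes, 47.9% were lower at E11.5 in S/G2/M cells and 49.1% in G1 cells. The shares of all genes that were lower, or that fell, in both phases were not counted, so these joint counts have no background beside them. Hoxd8 was higher at E11.5 in G1 cells and at nearly equal levels in S/G2/M cells, where its log2 fold change was 0.02, or -0.01 after centring on the median of all tested genes. Hoxa9, Hoxa10, Hoxa11 and Hoxa13 were lower at E11.5 in S/G2/M cells and higher at E11.5 in G1 cells. Whether a member's age difference itself differed between the phases was not tested, since the tables hold no values per sample.

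**Figure D2:**
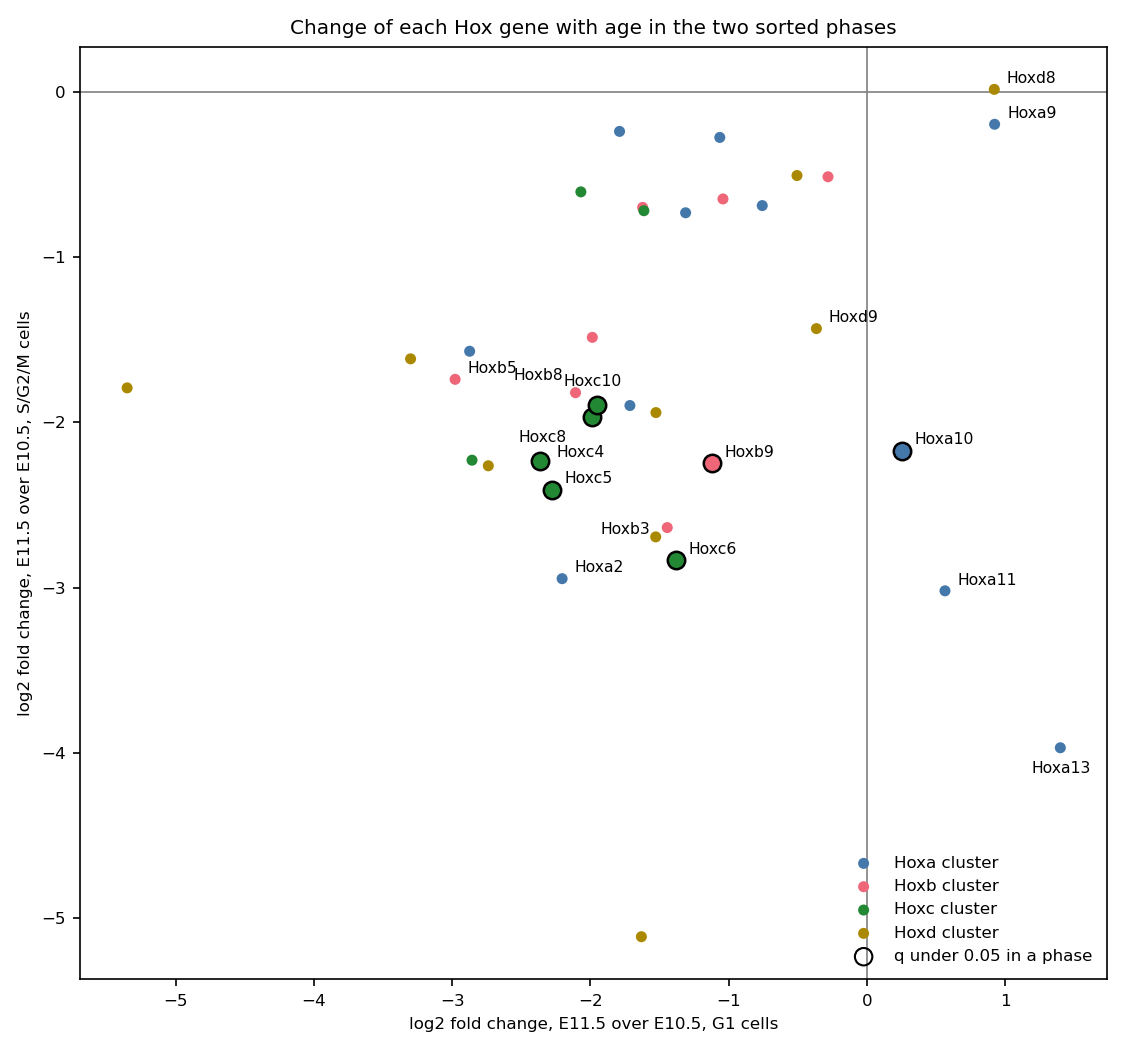
Log2 fold change, E11.5 over E10.5, of the 36 Hox genes above 0 in all groups, in G1 cells (x axis) and S/G2/M cells (y axis); colours give the cluster, outlined points passed in a phase by the authors' deposited tables, and names mark genes with p below 0.05 before adjustment or a positive G1 value. Most points lie below 0 on both axes, Hoxd8 lies right of 0 and close to 0 on the y axis, and Hoxa9, Hoxa10, Hoxa11 and Hoxa13 lie right of 0 and below it; Hoxb1, listed at 0 in E11.5 S/G2/M cells, is not plotted.

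Hoxc had the largest share of fallen members, 3 of 6 tested in each phase. Its summed level was 25.1 FPKM at E11.5 and 102.9 FPKM at E10.5 in S/G2/M cells, 4.10-fold lower, and 28.2 FPKM at E11.5 and 100.4 FPKM at E10.5 in G1 cells, 3.56-fold lower. All 9 members were lower at E11.5 in both phases. Hoxc4 (chr15:103034395-103036852, mm10), which is active from the neck backwards, had 2.78 FPKM at E11.5 against 13.1 FPKM at E10.5 in S/G2/M cells (log2 fold change -2.24, q = 0.0445 in the authors' deposited table). In G1 cells Hoxc4 had 3.46 FPKM at E11.5 against 17.8 FPKM at E10.5 (log2 fold change -2.36, q = 0.0357 in the authors' deposited table). Both E11.5 values of Hoxc4 thus lay under both E10.5 values.

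Hoxc6 and Hoxc8 act in the thorax and at forelimb level. Hoxc6 (chr15:103009562-103011881) had 4.63 FPKM at E11.5 against 33.1 FPKM at E10.5 in S/G2/M cells, a 7.14-fold fall (q = 0.0116 in the authors' deposited table). In G1 cells it did not pass (q = 0.211 in the authors' deposited table), with 10.2 FPKM at E11.5 and 26.6 FPKM at E10.5. Hoxc8 (chr15:102990539-102994254) was at about the same levels in both phases. It had 4.82 FPKM at E11.5 against 19.1 FPKM at E10.5 in G1 cells (q = 0.0243 in the authors' deposited table). In S/G2/M cells Hoxc8 had 5.04 FPKM at E11.5 against 19.7 FPKM at E10.5 and was the member next outside the threshold (q = 0.0598 in the authors' deposited table).

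Hoxc5 (chr15:103014008-103017429) had 1.79 FPKM at E11.5 against 8.70 FPKM at E10.5 in G1 cells (q = 0.0376 in the authors' deposited table), and 1.38 FPKM at E11.5 against 7.34 FPKM at E10.5 in S/G2/M cells. Hoxc10 (chr15:102966796-102971897), a gene of the lumbar region, had just under 5 FPKM at E11.5 against 18.6 FPKM at E10.5 in S/G2/M cells (q = 0.0325 in the authors' deposited table), and 3.68 FPKM at E11.5 against 14.3 FPKM at E10.5 in G1 cells. Hoxc5 and Hoxc10 share 166 exon bases on the same strand in the GENCODE M21 annotation, so reads there could be counted for either. Hoxc9, which is active in the thorax, did not pass, with 5.84 FPKM at E11.5 and 9.61 FPKM at E10.5 in S/G2/M cells, and 3.80 FPKM at E11.5 and 11.6 FPKM at E10.5 in G1 cells. Hoxc11, Hoxc12 and Hoxc13 stayed under 1.1 FPKM in every group and were not tested with age.

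Hoxb held the highest summed level of the clusters in every group, with 39.1 FPKM at E11.5 and 115.5 FPKM at E10.5 in S/G2/M cells, and 51.0 FPKM at E11.5 and 155.6 FPKM at E10.5 in G1 cells. Of its 9 tested members 2 fell in S/G2/M cells, Hoxb1 and Hoxb9, and in G1 cells none of 9 did, although 4 had p below 0.05 before adjustment in the authors' deposited table. Hoxb1 (chr11:96365758-96368253), which sets the identity of the fourth hindbrain segment, was listed at 0 at E11.5 against 5.33 FPKM at E10.5 in S/G2/M cells (q = 0.00308 in the authors' deposited table). In G1 cells it had 0.473 FPKM at E11.5 and 6.09 FPKM at E10.5 (q = 0.650 in the authors' deposited table). No fold is given for S/G2/M cells, where the level at E11.5 is listed at 0.

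Hoxb9 (chr11:96271330-96276593), a gene of the thorax, was among the 3 highest members in 3 of the 4 groups. It had 6.14 FPKM at E11.5 against 29.1 FPKM at E10.5 in S/G2/M cells, a 4.74-fold fall (q = 0.00308 in the authors' deposited table). In G1 cells it had 13.7 FPKM at E11.5 and 29.7 FPKM at E10.5 (q = 0.151 in the authors' deposited table). Hoxb5, which marks long-term blood stem cells of the adult mouse, had the highest level of any member in any group. It had 5.14 FPKM at E11.5 and 40.5 FPKM at E10.5 in G1 cells and was next outside the threshold there (q = 0.0522 in the authors' deposited table). Its S/G2/M values were 6.19 FPKM at E11.5 and 20.7 FPKM at E10.5.

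Hoxb5 shares 100 exon bases with Hoxb5os on the other strand, and the sources used here do not state whether counting used the strand. Hoxb5os had 0.633 FPKM at E11.5 and 21.6 FPKM at E10.5 in S/G2/M cells, and 1.70 FPKM at E11.5 and 16.4 FPKM at E10.5 in G1 cells. Over all members, 16 of 39 share exon bases with another annotated gene on either strand. Of the 8 members that fell, Hoxc5 and Hoxc10 do. The shared part can be large. Hoxb3 shares 2250 of its 4251 exon bases with Hoxb3os on the other strand. Hoxd3 shares 2225 of its 4191 exon bases with the annotated gene Gm28230 on the same strand.

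The other Hoxb members did not pass. Hoxb4, which expands blood stem cells when forced on, had 3.93 FPKM at E11.5 and 6.16 FPKM at E10.5 in S/G2/M cells, and 3.67 FPKM at E11.5 and 7.55 FPKM at E10.5 in G1 cells. Hoxb3, the anterior neighbour of Hoxb4, had 2.30 FPKM at E11.5 and 14.3 FPKM at E10.5 in S/G2/M cells (q = 0.0745 in the authors' deposited table), and 4.63 FPKM at E11.5 and 12.6 FPKM at E10.5 in G1 cells. Hoxb8, which keeps myeloid progenitors dividing when forced on, had 2.46 FPKM at E11.5 and 8.69 FPKM at E10.5 in S/G2/M cells, and 3.39 FPKM at E11.5 and 14.6 FPKM at E10.5 in G1 cells. All 3 were therefore lower at E11.5 in each phase, Hoxb4 by the least. Hoxb6 had 3.67 FPKM at E11.5 and 10.3 FPKM at E10.5 in S/G2/M cells, and 6.38 FPKM at E11.5 and 25.3 FPKM at E10.5 in G1 cells. Hoxb7 differed little, with 11.9 FPKM at E11.5 and 17.0 FPKM at E10.5 in S/G2/M cells, and 12.2 FPKM at E11.5 and 14.9 FPKM at E10.5 in G1 cells. Hoxb7 and Hoxd10 were the members within 1.5-fold between the ages in both phases. Hoxb13 was listed at 0 everywhere.

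Hoxa had 1 fallen member, Hoxa10 in S/G2/M cells, among 11 tested there and none among 9 tested in G1 cells. Hoxa10 (chr6:52231197-52240854), which acts in the uterus and in blood progenitors, had 3.76 FPKM at E11.5 against 16.9 FPKM at E10.5 in S/G2/M cells (q = 0.0165 in the authors' deposited table). In G1 cells it had 3.47 FPKM at E11.5 and 2.91 FPKM at E10.5. Its level was thus high in E10.5 S/G2/M cells and within 2.91 to 3.76 FPKM in the other 3 groups. Hoxa13, the gene of the limb end and the hind gut, was likewise highest in E10.5 S/G2/M cells. It had 0.587 FPKM at E11.5 and 9.20 FPKM at E10.5 in S/G2/M cells, which did not pass, and 1.15 FPKM at E11.5 and 0.436 FPKM at E10.5 in G1 cells, which was not tested.

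Hoxa9, which mouse blood stem cells need for full repopulating ability, had 4.98 FPKM at E11.5 and 5.70 FPKM at E10.5 in S/G2/M cells, and 7.62 FPKM at E11.5 and 4.02 FPKM at E10.5 in G1 cells (q = 0.584 in the authors' deposited table). Its paralogues Hoxb9, Hoxc9 and Hoxd9 were lower at E11.5 in both phases. Hoxa9 shared that direction in S/G2/M cells but not in G1 cells. Hoxa3, which in the mouse restrains blood formation from endothelium, had 7.02 FPKM at E11.5 and 8.50 FPKM at E10.5 in S/G2/M cells, and 7.78 FPKM at E11.5 and 16.3 FPKM at E10.5 in G1 cells. Hoxa2, which patterns the second branchial arch, had 2.65 FPKM at E11.5 and 20.4 FPKM at E10.5 in S/G2/M cells (q = 0.157 in the authors' deposited table). In G1 cells Hoxa2 had 3.95 FPKM at E11.5 and 18.2 FPKM at E10.5 (q = 0.0663 in the authors' deposited table).

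The central Hoxa genes were lower at E11.5 in both phases without passing. Hoxa5, which is needed for lung development, had 3.87 FPKM at E11.5 and 14.4 FPKM at E10.5 in S/G2/M cells, and 4.98 FPKM at E11.5 and 16.3 FPKM at E10.5 in G1 cells. Hoxa7 had 3.57 FPKM at E11.5 and 5.93 FPKM at E10.5 in S/G2/M cells, and 3.52 FPKM at E11.5 and 8.75 FPKM at E10.5 in G1 cells. Hoxa4 had 2.24 FPKM at E11.5 and 6.66 FPKM at E10.5 in S/G2/M cells, and 0.794 FPKM at E11.5 and 5.82 FPKM at E10.5 in G1 cells. The tables give Hoxa3, Hoxa4, Hoxa5 and Hoxa6 1 shared locus, and Hoxb5 and Hoxb6 another. Hoxa6 had 6.34 FPKM at E11.5 and 7.49 FPKM at E10.5 in S/G2/M cells, and 2.38 FPKM at E11.5 and 8.23 FPKM at E10.5 in G1 cells.

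No Hoxd member passed in either phase, of 8 tested in each, by the authors' deposited table, in which Hoxd9 in S/G2/M cells alone had p below 0.05 before adjustment. Hoxd8 had 8.92 FPKM at E11.5 and 8.83 FPKM at E10.5 in S/G2/M cells, and 15.3 FPKM at E11.5 and 8.07 FPKM at E10.5 in G1 cells (q = 0.491 in the authors' deposited table). Hoxd8 was the highest member of the cluster at E11.5, while Hoxd9 was higher at E10.5. The cluster's sum was 19.8 FPKM at E11.5 and 46.6 FPKM at E10.5 in S/G2/M cells and 27.8 FPKM at E11.5 and 36.9 FPKM at E10.5 in G1 cells. The log2 ratio of the G1 sums was -0.41 with Hoxd8 and -1.20 without it. Hoxd9, a gene of the trunk and the limb, had 3.75 FPKM at E11.5 and 10.1 FPKM at E10.5 in S/G2/M cells (q = 0.306 in the authors' deposited table), and 6.91 FPKM at E11.5 and 8.91 FPKM at E10.5 in G1 cells.

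Hoxd10, which acts in lumbar motor neurons, had 4.29 FPKM at E11.5 and 6.10 FPKM at E10.5 in S/G2/M cells, and 2.18 FPKM at E11.5 and 3.10 FPKM at E10.5 in G1 cells. Hoxd13, the digit gene, had 0.284 FPKM at E11.5 and 9.83 FPKM at E10.5 in S/G2/M cells, and 0.650 FPKM at E11.5 and 2.01 FPKM at E10.5 in G1 cells. Like Hoxa10 and Hoxa13, it was highest in E10.5 S/G2/M cells. Hoxd3, which shapes the first neck vertebrae, had 0.844 FPKM at E11.5 and 4.05 FPKM at E10.5 in S/G2/M cells, and 1.19 FPKM at E11.5 and 7.92 FPKM at E10.5 in G1 cells. Hoxd3 shares exon bases with Hoxd4 on the same strand. The 11 members that are described by counts alone, Hoxd4 among them, stayed under 5 FPKM everywhere.

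By paralogue number, all 3 classes had lower sums at E11.5. The anterior genes (1 to 3) summed to 17.2 FPKM at E11.5 and 62.5 FPKM at E10.5 in S/G2/M cells, and to 23.0 FPKM at E11.5 and 72.5 FPKM at E10.5 in G1 cells. The central genes (4 to 8) summed to 67.3 FPKM at E11.5 and 180.5 FPKM at E10.5 in S/G2/M cells, and to 78.3 FPKM at E11.5 and 224.7 FPKM at E10.5 in G1 cells. The posterior genes (9 to 13) summed to 36.1 FPKM at E11.5 and 121.9 FPKM at E10.5 in S/G2/M cells, and to 45.0 FPKM at E11.5 and 82.1 FPKM at E10.5 in G1 cells. The central class held the largest share of Hox RNA in every group, from 49.5% in E10.5 S/G2/M cells to 59.3% in E10.5 G1 cells.

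The promoters of a few members are shown to let these genes be set side by side. Hoxb1 and Hoxa10 fell in S/G2/M cells, Hoxb8 was lower at E11.5 in both phases without passing, and Hoxd8 did not pass, with a higher value at E11.5 in G1 cells and nearly equal values in S/G2/M cells. Sequences are from the RefSeq promoter table (GRCm38.p6), which matched 22 of the 39 members with 24 windows. Each stretch below runs 5′ to 3′ on the gene's strand, has 240 bases and ends 10 bases before the transcription start. Capitals mark matches, on either strand, to the motifs named after them, and Hoxa10 has a stretch for each of its 2 starts.
Hoxb1, chr11:96365508-96365747, plus strand: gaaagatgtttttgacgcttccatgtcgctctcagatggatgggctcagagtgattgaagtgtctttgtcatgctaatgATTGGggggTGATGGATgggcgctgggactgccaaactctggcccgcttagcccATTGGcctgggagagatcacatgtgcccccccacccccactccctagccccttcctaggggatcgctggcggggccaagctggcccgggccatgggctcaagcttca
Hoxa10, chr6:52240865-52241104, minus strand: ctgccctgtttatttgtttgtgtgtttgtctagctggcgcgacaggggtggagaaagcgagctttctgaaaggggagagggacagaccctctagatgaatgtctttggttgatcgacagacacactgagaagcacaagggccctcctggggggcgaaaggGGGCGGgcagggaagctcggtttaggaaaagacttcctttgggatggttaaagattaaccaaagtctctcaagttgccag
Hoxa10, chr6:52234950-52235189, minus strand: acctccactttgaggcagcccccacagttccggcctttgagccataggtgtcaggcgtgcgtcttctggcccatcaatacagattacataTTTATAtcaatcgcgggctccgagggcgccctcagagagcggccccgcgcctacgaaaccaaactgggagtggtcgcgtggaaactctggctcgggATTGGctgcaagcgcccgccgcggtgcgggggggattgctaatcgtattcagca
Hoxb8, chr11:96281655-96281894, plus strand: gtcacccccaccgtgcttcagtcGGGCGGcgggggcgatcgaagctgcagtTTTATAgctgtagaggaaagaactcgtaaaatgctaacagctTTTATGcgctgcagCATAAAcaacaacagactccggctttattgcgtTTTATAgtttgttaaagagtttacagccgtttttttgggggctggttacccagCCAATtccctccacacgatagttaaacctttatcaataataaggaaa
Hoxd8, chr2:74704365-74704604, plus strand: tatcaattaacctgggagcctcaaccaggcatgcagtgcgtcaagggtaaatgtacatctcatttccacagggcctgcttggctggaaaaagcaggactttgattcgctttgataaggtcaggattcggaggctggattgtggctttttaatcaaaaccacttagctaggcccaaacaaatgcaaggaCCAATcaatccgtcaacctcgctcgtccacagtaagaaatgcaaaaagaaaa

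The motifs were searched on both strands in windows of 300 bases, 250 before to 50 after the start. The Hox-Pbx motif TGATNNAT was in 8.85% of all 32851 windows and in 4 of the 24 Hox windows, those of Hoxa2, Hoxb1, Hoxb8 and Hoxd11. The Hoxb1 match begins 162 bases before the start. The Hoxb8 match begins 11 bases before the start, so it runs past the end of the printed stretch and is not marked there. As background, mouse Hoxb1 keeps itself on in the hindbrain through Hox-Pbx elements upstream of its promoter. The Cdx motif TTTATG was in 11.9% of all windows and in 5 Hox windows, and Hoxa7, Hoxb8 and Hoxd4 each held it at 2 places. The Meis motif TGACAG was in 19.2% of all windows and in 2 Hox windows.

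Of the core promoter motifs, TATAAA was in 13.6% of all windows and in 4 Hox windows, CCAAT in 37.4% and in 15, and GGGCGG in 35.7% and in 10. The retinoic acid DR5 motif, a direct repeat bound by retinoic acid receptors, was in 0.100% of all windows and in none of the Hox windows. The median GC content was 57.7% in Hox windows and 52.7% in all windows, and the median number of CG pairs was 14.5 in Hox windows and 7 in all. A match is a match of letters and does not show that a factor binds.

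The second question was whether Hox RNA differed between the phases at 1 age. No member passed at either age, and the test of the authors' deposited tables called 0.701% of 12414 tested genes at E11.5 and 0.655% of 12984 at E10.5. At E11.5, 27 members were tested, and Hoxb9 alone, lower in S/G2/M cells, had p below 0.05 before adjustment in the authors' deposited table. Of all tested genes, 4.95% were lower and 3.32% higher at that level. At E10.5, 35 were tested, with Hoxb5 the lower and Hoxa10 and Hoxd13 the higher in S/G2/M cells at that level by the authors' deposited table, against 4.28% lower and 2.4% higher among all tested genes. The authors' deposited tables that list these groups in reverse called no member either and had these 4 genes below 0.05. These values come from the tables of phases, in which a group's FPKM differs slightly from those given above, because each table was normalized on its own.

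At E11.5 Hoxb9 had 5.87 FPKM in S/G2/M cells and 13.5 FPKM in G1 cells (p = 0.0194 and q = 0.423 in the authors' deposited table). The FPKM of all members summed to 115.1 in S/G2/M cells and 144.5 in G1 cells, and the median log2 fold change was -0.28, against -0.06 for all tested genes. Of the 39 members, 23 were lower and 15 higher in S/G2/M cells, and 54% of all tested genes were lower. Hoxd8, the highest member in G1 cells, had 8.55 FPKM in S/G2/M cells and 15.1 FPKM in G1 cells (q = 0.770 in the authors' deposited table).

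At E10.5 Hoxa10 had 17.1 FPKM in S/G2/M cells and 3.06 FPKM in G1 cells (log2 fold change 2.48, p = 0.0039 and q = 0.258 in the authors' deposited table). Hoxd13 had 9.91 FPKM in S/G2/M cells and 2.10 FPKM in G1 cells (p = 0.0306 and q = 0.641 in the authors' deposited table). Hoxb5 had 20.7 FPKM in S/G2/M cells and 42.4 FPKM in G1 cells (p = 0.0318 and q = 0.642 in the authors' deposited table). The posterior Hoxa10 and Hoxd13 were thus the higher in S/G2/M cells and the central Hoxb5 the lower, with none past the threshold. Hoxa13, also posterior, had 9.32 FPKM in S/G2/M cells and 0.455 FPKM in G1 cells.

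At E10.5, summed over the class, posterior genes had 122.6 FPKM in S/G2/M cells and 86.1 FPKM in G1 cells, with 10 members higher and 5 lower in S/G2/M cells. That posterior difference lay largely in Hoxa10, Hoxa13 and Hoxd13, none of which passed. Central genes had 180.7 FPKM in S/G2/M cells and 235.5 FPKM in G1 cells, with 4 higher and 11 lower. Anterior genes had 62.5 FPKM in S/G2/M cells and 76.0 FPKM in G1 cells, with 3 higher and 5 lower. At E11.5 the posterior sum was the lower in S/G2/M cells, with 34.5 FPKM in S/G2/M cells and 44.4 FPKM in G1 cells, 8 members higher and 7 lower. Central genes at E11.5 had 64.1 FPKM in S/G2/M cells and 77.3 FPKM in G1 cells, and anterior genes 16.5 FPKM in S/G2/M cells and 22.7 FPKM in G1 cells. No test was made of these sums. Over all members, the E10.5 sums were 365.8 FPKM in S/G2/M cells and 397.6 FPKM in G1 cells, and the median log2 fold change was -0.13, against -0.04 for all tested genes. Lower in S/G2/M cells were 21 of the 39, and 52.9% of all tested genes.

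**Figure D3:**
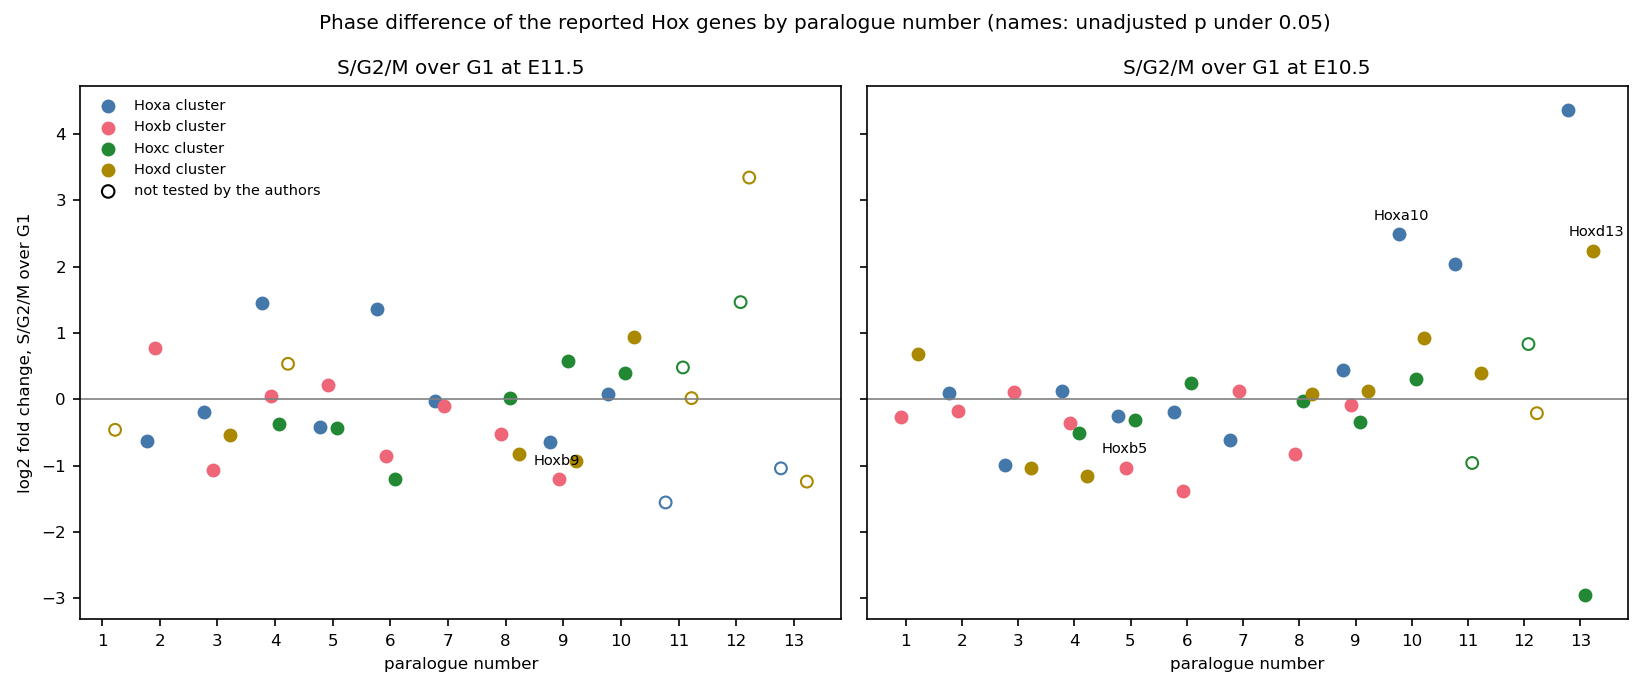
Log2 fold change, S/G2/M over G1, of the reported Hox genes above 0 in both groups by paralogue number, at E11.5 (left) and E10.5 (right); colours give the cluster, open points were not tested by the authors, and names mark p below 0.05 before adjustment in the authors' deposited tables. At E10.5 Hoxa13, Hoxa10 and Hoxd13 lie highest at the posterior end, at 4.36, 2.48 and 2.24, and at E11.5 Hoxa13 and Hoxd13 lie below 0.

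The proteins that bind DNA with Hox, the TALE factors, also had members that fell with age. Of 9 tested, 3 fell in S/G2/M cells by the authors' deposited table, Meis2 and Pknox2 among them, and 2 in G1 cells, Meis2 among them. Pknox2, a relative of the Meis factors, had 1.45 FPKM at E11.5 against 9.21 FPKM at E10.5 in S/G2/M cells. Meis2 had 9.65 FPKM at E11.5 against 38.1 FPKM at E10.5 in S/G2/M cells, and 13.3 FPKM at E11.5 against 43.2 FPKM at E10.5 in G1 cells. Meis2 is a partner of many Hox proteins. Meis1, the family member best known in blood stem cells, did not pass, with 19.8 FPKM at E11.5 and 30.6 FPKM at E10.5 in S/G2/M cells, and 14.6 FPKM at E11.5 and 31.9 FPKM at E10.5 in G1 cells (q = 0.115 in the authors' deposited table). No TALE gene passed between the phases at either age by the authors' deposited tables, in which Meis3 at E10.5 alone had p below 0.05 before adjustment.

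Of the genes that keep Hox active or silent, Mllt3 alone passed with age. Over all tested genes, 1.93% fell and 2.14% rose with age in S/G2/M cells, and 1.45% fell and 3% rose in G1 cells. Of 19 trithorax and MLL genes tested, 1 fell with age in S/G2/M cells, Mllt3, a partner of MLL in leukaemia and a stem cell factor, with 6.64 FPKM at E11.5 against 18.9 FPKM at E10.5 (q = 0.00308 in the authors' deposited table). In G1 cells Mllt3 had 7.70 FPKM at E11.5 and 15.4 FPKM at E10.5 (q = 0.164 in the authors' deposited table). Psip1, lower at E11.5, and Kmt2d, higher, had p below 0.05 before adjustment in S/G2/M cells by the authors' deposited table. Kmt2a, which encodes MLL itself, had 12.5 FPKM at E11.5 and 13.3 FPKM at E10.5 in S/G2/M cells. No Polycomb gene passed in a comparison of ages by the authors' deposited tables, of 18 tested in S/G2/M cells and 17 in G1 cells. Before adjustment, 2 in S/G2/M cells and 1 in G1 cells had p below 0.05 there, by the authors' deposited tables. Ezh2, the histone methyltransferase of Polycomb, had 37.6 FPKM at E11.5 and 56.1 FPKM at E10.5 in S/G2/M cells, and 37.2 FPKM at E11.5 and 41.9 FPKM at E10.5 in G1 cells.

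Of 16 genes for retinoic acid, Fgf, Wnt and Gdf signals and the Lin28 timers, 4 fell with age in each phase by the authors' deposited tables, the same 4 in both, with 12 tested in S/G2/M cells and 13 in G1 cells. Aldh1a2, which makes retinoic acid, had 4.59 FPKM at E11.5 against 28.6 FPKM at E10.5 in S/G2/M cells, and 3.08 FPKM at E11.5 against 31.0 FPKM at E10.5 in G1 cells. Crabp1, which binds retinoic acid in the cytoplasm, had 50.02 FPKM at E11.5 against 266.3 FPKM at E10.5 in S/G2/M cells, and 64.3 FPKM at E11.5 against 697.9 FPKM at E10.5 in G1 cells. The others were Crabp2, a second such protein, and Lin28a, an RNA-binding protein of early embryonic cells. The Cdx genes, activators of Hox in the tail of the embryo, were not tested by the authors, and their 3 genes together stayed under 0.56 FPKM in every group.

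Marker genes of mesenchyme and somites were also lower at E11.5. Of 14 mesenchyme and somite markers, 5 fell in S/G2/M cells by the authors' deposited table and 14 were lower at E11.5, with a summed level of 94.2 FPKM at E11.5 and 302.4 FPKM at E10.5. In G1 cells 5 fell and 13 were lower, with 100.6 FPKM at E11.5 and 273.2 FPKM at E10.5. In both phases the fallen genes were Col3a1, Meox1, Pdgfra, Prrx1 and Ptn. Meox1, a somite gene, had 1.54 FPKM at E11.5 against 25.0 FPKM at E10.5 in S/G2/M cells, and 2.86 FPKM at E11.5 against 31.7 FPKM at E10.5 in G1 cells. None of the 14 was listed at 0 in any group. The list's median log2 fold change was -2.07 in S/G2/M cells and -1.26 in G1 cells, beside -1.81 and -1.63 for the Hox members.

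Of 12 neural markers, none fell with age in S/G2/M cells, although 4 had p below 0.05 before adjustment in the authors' deposited table. The summed levels of the list there were 57.1 FPKM at E11.5 and 110.8 FPKM at E10.5. Dcx, Elavl3 and Stmn2 were somewhat higher at E11.5 in S/G2/M cells, and the other neural markers were lower. In G1 cells 3 fell, Dcx, Elavl4 and Tubb3, with 119.3 FPKM at E11.5 and 375.2 FPKM at E10.5. Of 9 markers of the urogenital ridge, none fell in S/G2/M cells (1 had p below 0.05 before adjustment in the authors' deposited table) and Emx2 fell in G1 cells. Their sums were 16.3 FPKM at E11.5 and 39.6 FPKM at E10.5 in S/G2/M cells, and 26.0 FPKM at E11.5 and 77.9 FPKM at E10.5 in G1 cells. All urogenital markers were lower at E11.5 in S/G2/M cells, while Lhx9 and Wt1 were higher at E11.5 in G1 cells. No neural or urogenital marker was listed at 0 in any group.

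Endothelial, macrophage and some blood cluster genes were higher at E11.5. Of 9 blood cluster genes, 4 rose at E11.5 in S/G2/M cells, Hlf, Kit, Myb and Runx1, and 2 in G1 cells, Ptprc and Runx1, by the authors' deposited tables. Their sum was 185.8 FPKM at E11.5 and 56.8 FPKM at E10.5 in S/G2/M cells, and 99.2 FPKM at E11.5 and 44.7 FPKM at E10.5 in G1 cells. All 9 were higher at E11.5 in S/G2/M cells, with a median log2 fold change of 2.02, but 6 were higher and 3 lower in G1 cells, with a median of 0.24. Of 7 endothelial genes, Erg and Pecam1 rose in S/G2/M cells and Pecam1 in G1 cells, and all 7 were higher at E11.5 in both. Macrophage genes rose in 7 of 9 cases in S/G2/M cells and in 9 of 9 in G1 cells. Their sum was 616.2 FPKM at E11.5 and 168.1 FPKM at E10.5 in S/G2/M cells, and 2194 FPKM at E11.5 and 276.8 FPKM at E10.5 in G1 cells.

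Of 5 erythroid genes, Hbb-bh1 fell with age in S/G2/M cells and none fell in G1 cells, where 2 had p below 0.05 before adjustment in the authors' deposited table. The erythroid sums were 3191 FPKM at E11.5 and 19335 FPKM at E10.5 in S/G2/M cells, and 11860 FPKM at E11.5 and 14223 FPKM at E10.5 in G1 cells. No germ cell marker of 6 passed by the authors' deposited tables, with 1 in each phase at p below 0.05 before adjustment. In both phases this was Prdm1, which was higher at E11.5. The part of any of these cell types in the age difference of the Hox genes was not tested.

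Marker lists also moved between the phases. At E11.5, 7 of 9 macrophage markers fell in S/G2/M cells by the authors' deposited table, with sums of 589.9 FPKM in S/G2/M cells and 2168 FPKM in G1 cells. At that age 2 erythroid markers, Hba-x and Hbb-bh1, and 1 neural marker, Ncan, also fell in S/G2/M cells, and 1 blood cluster marker, Hlf, rose. At E10.5, 6 of 12 neural markers fell in S/G2/M cells by the authors' deposited table, with sums of 110.8 FPKM in S/G2/M cells and 392.2 FPKM in G1 cells. No marker of the other lists passed at E10.5 by that table. Before adjustment, 3 macrophage, 4 urogenital and 1 mesenchyme marker had p below 0.05 there and were lower in S/G2/M cells. The 1 blood cluster marker with p below 0.05 before adjustment in that table, Myb, was higher in S/G2/M cells. The part of these marker lists in the phase values of the Hox genes was not tested.

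**Figure D4:**
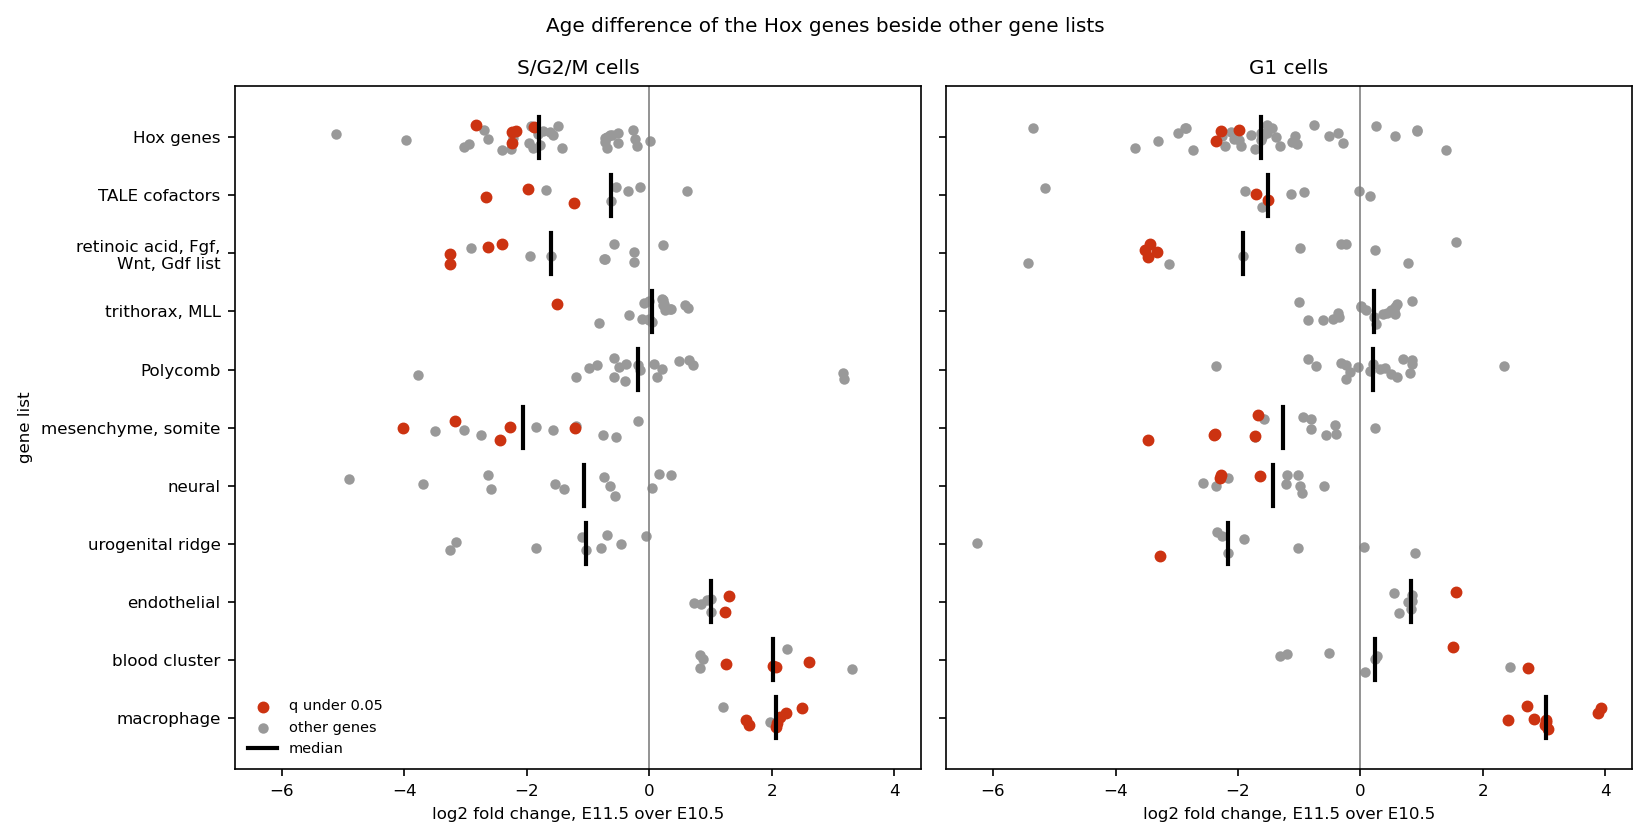
Log2 fold change, E11.5 over E10.5, of each gene (points) in the Hox clusters and 10 other gene lists, in S/G2/M cells (left) and G1 cells (right); red points passed by the authors' deposited tables and bars are medians. The Hox median lies at -1.81 and -1.63, beside -2.07 and -1.26 for mesenchyme and somite genes, while the macrophage medians lie at 2.06 and 3.02.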

How the data were processed

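RNA of 12 sorted samples, 3 in each of 4 groups, was sequenced, and the authors deposited 6 gene tables, of which 4 give the results here. Per the file headers, each gives, for a pair of groups, the FPKM of both with the p-value and q-value of the test between them, as the authors deposited them. No column holds a single sample. The submitters' processing notes list Cuffdiff, TopHat, CASAVA 1.4 and the build mm10; the labels' protocols name bowtie 0.12.2 and mm8 instead. Trimming and masking of reads, per the labels' protocols, came before mapping. No source states that the 3 samples entered the test one by one, so a p-value reflects at most a spread that may be technical.

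Tested genes numbered 12414 to 12984 per table, and recomputing a Benjamini-Hochberg adjustment over them gave the authors' q-values within 5.3e-07. Calls used these q-values at 0.05. Fold changes were computed from the FPKM values, without a pseudocount and not for values of 0. Ages were compared within the tables of ages, and phases within the tables of phases. Between the tables, the FPKM of the Hox members in a group differed by a median ratio of 0.954 to 1.05. The name G2 in the tables was taken to mean the S/G2/M group. No test on single samples, list or set was run.

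Members were given with values where they reached 5 FPKM in a group or had an unadjusted p or a q under 0.05 (28 members). Some genes are withheld and not reported here. Members, lists and rules were chosen with earlier results of these data known. The code was tested on simulated data. Motifs were searched in RefSeq promoter windows (GRCm38.p6), and exon overlaps taken from GENCODE M21. The alternatives were other q-value thresholds, filters on low values, genes at 0 left out, a fold requirement, a pseudocount, centring, leaving out the highest member and, for the phases, the tables in the other order. The tools were pandas 2.3.3, numpy 2.4.6, matplotlib 3.10.9 and Python 3.11.15.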

Additional observations from a re-analysis of the deposited data

How the results depend on the processing

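No paired analysis was possible because the tables hold group values and no column of a single sample; for the same reason no replicate was left out in turn. The number of fallen Hox members depended on the threshold. In S/G2/M cells the 6 with age became 2 at a q-value of 0.01, and in G1 cells the 3 became 0 at 0.01 and 5 at 0.085. Over all genes, 263 in S/G2/M cells and 301 in G1 cells were called with age at 0.01, and none was called between the phases at either age. The smallest p-value between the phases was 5e-05 in the authors' deposited tables, with q = 0.0101 at E10.5 and 0.0102 at E11.5. No gene could therefore be called there at 0.01, and the lack of calls does not measure the size of phase differences. At E10.5 the 85 genes called between the phases became 49 under a minimum of 5 FPKM and 47 without genes listed at 0. The log2 ratio of the Hoxd sums with age in G1 cells was -1.20 without Hoxd8, against -0.41 with it. A pseudocount of 1 FPKM moved 12 of 110 log2 fold changes of named members by over 1.5-fold and turned none round. Chosen after the data were seen, leaving out members whose exons overlap another gene left 5 fallen members in S/G2/M cells and 2 in G1 cells. Why the values shifted under these settings was not tested. The unknown depth limits what can be said of members near 0, such as Hoxb1 at E11.5.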

Other observations

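Other transcripts of the Hox clusters were measured beside the coding genes. Of 17 noncoding and antisense genes found, 7 were tested with age in each phase and none passed, or had p below 0.05 before adjustment, in the authors' deposited tables. Mira, a noncoding transcript of Hoxa, had 12.2 FPKM at E11.5 and 23.7 FPKM at E10.5 in S/G2/M cells, and 15.96 FPKM at E11.5 and 25.9 FPKM at E10.5 in G1 cells. Hotairm1, a noncoding transcript of the anterior end of Hoxa, had 4.19 FPKM at E11.5 and 7.78 FPKM at E10.5 in S/G2/M cells, and 5.96 FPKM at E11.5 and 15.9 FPKM at E10.5 in G1 cells. The 6 microRNA hairpin genes were listed at 0 in every group except Mir10a, which had 547.2 FPKM in E11.5 G1 cells and no test in the tables. FPKM is scaled by length, so few fragments can give a high value for a short hairpin. The Mir10a value cannot be set beside those of the longer genes.

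Of 16 genes found that flank the clusters, 12 were tested with age in each phase and none passed in the authors' deposited tables, with 1 in S/G2/M cells and 3 in G1 cells at p below 0.05 before adjustment. Their median log2 fold change was -0.12 in S/G2/M cells and -0.33 in G1 cells. Of 8 other homeobox genes of the Evx, Gbx and ParaHox kind, 2 were tested and none passed, or had p below 0.05 before adjustment, in the authors' deposited tables. Gbx2, which acts at the border of midbrain and hindbrain, had 2.75 FPKM at E11.5 and 3.90 FPKM at E10.5 in S/G2/M cells, and 0.661 FPKM at E11.5 and 4.92 FPKM at E10.5 in G1 cells.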
